A study of Mus musculus with 10 samples.

Results

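The genes described here encode proteins of the lysosome: proteases of the cathepsin family, enzymes that take apart sugar chains, sulfate esters and lipids, and proteins of the lysosomal membrane. The list named 44 genes by symbol, and each had 1 row among the 23930 rows of the count table. Of these, 43 were read deeply enough to be tested, and 12719 genes were tested in all. The remaining gene, Idua (the enzyme that removes iduronic acid from glycosaminoglycans), had 1 read in Srgn-knockout 2 and no read in the other libraries. At these depths the level that 3 reads would give was 0.279 to 0.383 CPM, the count per 1000000 reads, so Idua was not detectable above that level. Each gene was read by 1 short amplicon, and whether that of Idua works was not tested. The list was drawn up by function, with no measured value in its rule, but it was chosen with earlier results of these data known.

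The tissue was epididymal white fat, a visceral depot that lies beside the epididymis, taken from male C57BL/6 mice aged 18 weeks. All 10 mice had eaten the high sucrose/high fat feed for 8 weeks, and no group on another diet was analysed here. The groups were 5 wild-type mice (Srgn+/+) and 5 mice without serglycin (Srgn-/-, called Srgn-knockout). Serglycin is a proteoglycan that carries chondroitin sulfate or heparin chains in the granules of immune cells, and how the Srgn allele was made is not given in the sources used here. Each library came from whole tissue of 1 mouse, so a p-value measures the spread between these mice. In such bulk samples, fewer cells of a type and less RNA per cell cannot be told apart.

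Lysosomes are acidic organelles in which hydrolases break down material brought in by endocytosis, phagocytosis and autophagy. Most soluble hydrolases are tagged with mannose 6-phosphate in the Golgi and carried to the lysosome by sorting receptors, a proton pump acidifies the lumen, and transcription factors of the TFEB family bind a CACGTG-containing element in the promoters of many lysosomal genes. Macrophages are rich in lysosomes. In obese fat they gather around dying adipocytes and take up their lipid, and lysosomal genes are part of the programme of such lipid-laden macrophages.

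The libraries held 7824764 to 10757779 reads. Srgn, the targeted gene, had 776 to 1301 reads in each wild-type library and 0 to 12 in each Srgn-knockout library. Its log2 fold change was -8.18 (edgeR quasi-likelihood test, Benjamini-Hochberg adjusted p = 9.44e-05). The adipocyte hormone gene Adipoq stood at 747 to 1410 CPM, so the labelled tissue carried its marker in every library. Genes of the epididymis, the neighbouring organ, summed to 4501 CPM in Srgn-knockout 3, 1038 in Srgn-knockout 5 and 531 in wild-type 4, against at most 18.8 in the others. Without these 3 libraries no member passed between the genotypes and 29 rose with the macrophage score described next, against 0 and 31 with all 10. Of all genes, 1535 rose with that score without these 3 libraries, against 1782 with all 10. The macrophage content of a library was scored as the mean log2 CPM of 16 pan-macrophage markers such as Adgre1, Csf1r and C1qb, none of them lysosomal, centred over the 10 libraries. For wild-type 1 to 5 the score was -0.83, 0.22, 0.48, 0.21 and 0.75, and for Srgn-knockout 1 to 5 it was 0.45, -0.73, -0.56, 0.18 and -0.17. Both genotypes thus held libraries with low and with high scores, and the means of 0.17 ± 0.60 and -0.17 ± 0.49 (SD, n = 5 each) did not differ beyond that spread (two-sided exact permutation test, p = 0.349).

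The promoters of the members were read first, because the element bound by TFEB can be looked for in them directly. RefSeq promoter windows of assembly GRCm38.p6, each 250 bases before to 50 bases after an annotated start, were matched by symbol for 39 of the 44 members (45 windows). Asah1, Ctsb, Ctsh, Galns and Npc1 were not matched. CACGTG, whose reverse complement is itself, stood in the windows of 14 of the 39 members (35.9%), against 8.09% of all 27025 genes with a window and 7.15% of all windows. Of 79 genes on the lists of other lysosome-related genes read below, which include cathepsin inhibitors and nutrient-sensing genes, 19% held it. The longer TCACGTGA contains CACGTG and is also its own reverse complement. It stood in 5 of 39 members (12.8%), against 1.12% of all genes, 0.974% of all windows and 11.4% of those 79 genes. Those 5 members were Gla, Ctsd, Ctsa, Cln3 and Mcoln1. For the first 4 of them, ordered by the test of their gradient, the lines give 30 bases around each TCACGTGA that lies before the start site. The sequences run 5′ to 3′ on the strand of the gene, and the capitals mark the motif. Its first base lies at position -228 or -195 in Gla, -99 in Ctsd, -13 in Ctsa and -122 in Cln3, counted from the annotated start.
Gla, chrX:134601215-134601244, minus strand: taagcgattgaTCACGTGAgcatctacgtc
Gla, chrX:134601182-134601211, minus strand: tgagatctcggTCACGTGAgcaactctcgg
Ctsd, chr7:142387908-142387937, minus strand: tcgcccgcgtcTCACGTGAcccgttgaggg
Ctsa, chr2:164833749-164833778, plus strand: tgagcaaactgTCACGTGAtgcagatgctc
Cln3, chr7:126583340-126583369, minus strand: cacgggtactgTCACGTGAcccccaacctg

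In all 5 stretches the motif is complete, and Gla holds it in both of its lines. Ctsa holds a further copy 5 bases after its start. The promoter of Lamp1, which lacks the longer motif, holds CACGTG at positions -61, -45, -28 and -15 (picked out after the hits were seen). Another motif, GAGGAAGT, of the kind bound by the myeloid factor PU.1, was searched on both strands. It stood in the windows of 4 members (10.3%, against 3.69% of all genes and 3.2% of all windows): Ctss, Ctsc, Gla and Gusb. Of the 79 genes on lists of other lysosome-related genes, 0 held it. In Ctss it starts at position -2. A match is a description of the letters in a window and not a measured binding site.

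The comparison of the genotypes asks whether the loss of serglycin went with a change of the lysosomal genes in diet-fed fat. None of the 43 tested members passed the edgeR quasi-likelihood test at a Benjamini-Hochberg adjusted p of 0.05. The background was as low: 1 of 12719 genes passed, which is 0.00786%, and that gene was Srgn. At an unadjusted p under 0.05 the members held 1 gene, Acp5, while 12.8% of all tested genes reached that level. DESeq2 called no member either, although it called 221 genes. For no member did the values of the genotypes stay apart without overlap, against 2.78% of all tested genes.

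The fitted difference (log2 of Srgn-knockout over wild-type) was below 0 for 33 members and above 0 for 10. Of all 12719 tested genes, 6393 were below 0 and 6326 above. The median was -0.17 over the members and -0.0014 over all tested genes. The members' median was -0.066 without wild-type 5, -0.11 by limma-trend on the deposited RPM and -0.020 with the macrophage score as a covariate. The median standard error (SE) of a member was 0.17. Together the members took 1.46%, 2.17%, 2.52%, 2.45% and 3.36% of the reads of wild-type 1 to 5, and for Srgn-knockout 1 to 5 their share was 2.49%, 1.55%, 1.70%, 2.40% and 2.01%. The means were 2.39% ± 0.68 and 2.03% ± 0.41 (SD, n = 5), and the libraries of both genotypes overlapped over most of that range. The lowest share was in wild-type 1 and the highest in wild-type 5, both of the same genotype. Ctsd and Ctsb weigh most in such a sum. Their wild-type means were 6363 and 6200 CPM, of 24508 CPM for the members together.

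**Figure D1:**
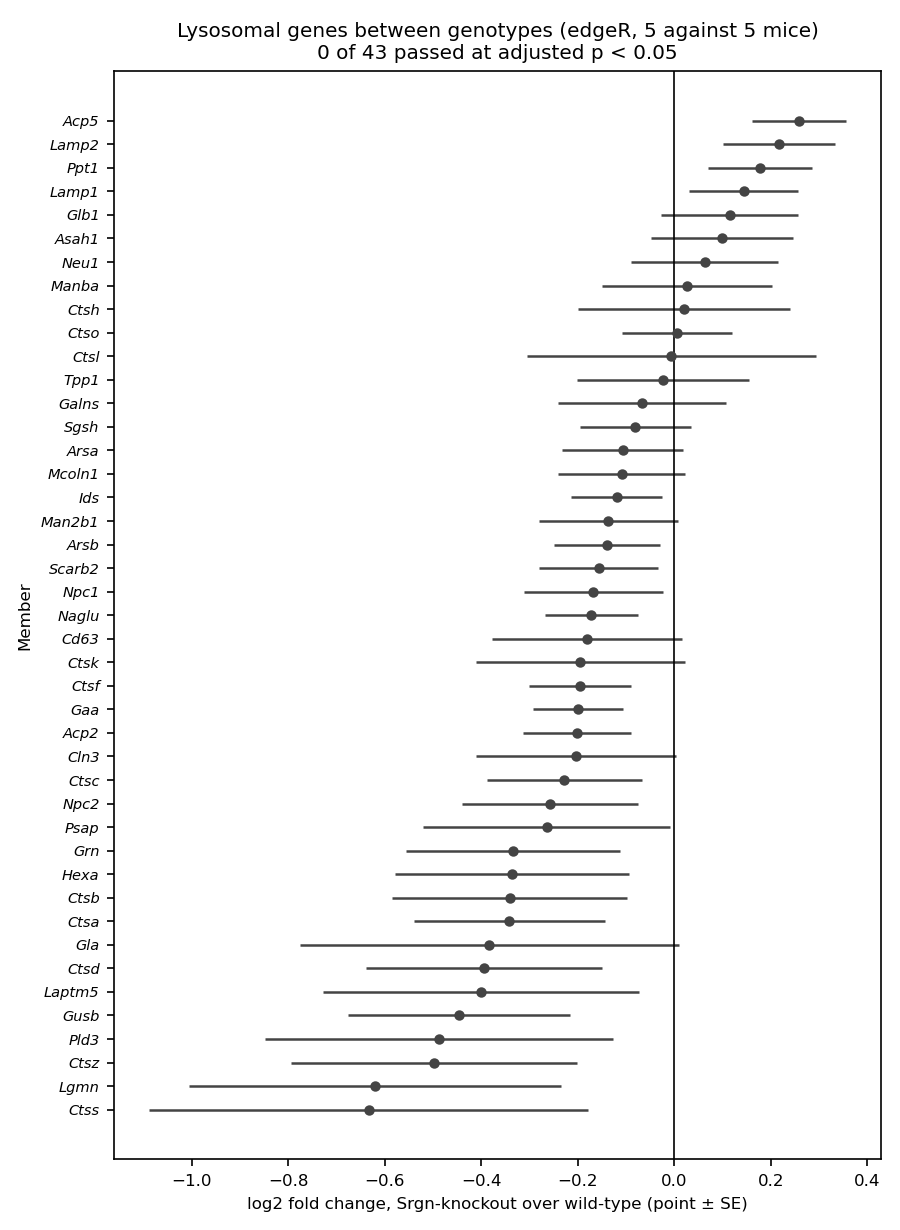
Log2 fold change of each tested lysosomal gene, Srgn-knockout over wild-type, with its standard error as the bar (edgeR, 5 against 5 mice). The points lie between -0.63 (Ctss) and 0.26 (Acp5), and no gene passed at an adjusted p of 0.05.

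Acp5 encodes tartrate-resistant acid phosphatase, an enzyme of osteoclasts and macrophages, and had the smallest p between the genotypes. Its level was 349, 346, 347, 338 and 333 CPM in wild-type 1 to 5 and 341, 369.9, 461, 455 and 422 CPM in Srgn-knockout 1 to 5. The wild-type libraries lay close together, and 4 of the 5 Srgn-knockout libraries were above all of them, with Srgn-knockout 1 inside the wild-type range. The means were 343 ± 7.08 and 409.7 ± 52.9 CPM (SD, n = 5), with a log2 fold change of 0.26 (SE 0.098, adjusted p = 0.319 by edgeR with Benjamini-Hochberg adjustment). Srgn-knockout 3 and 5 are among the 3 libraries with epididymis genes. Without those 3 libraries the log2 fold change of Acp5 was 0.18 (adjusted p = 0.999 by edgeR).

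Gaa, the acid alpha-glucosidase that breaks down glycogen, came next. Its level was 262, 267, 229.7, 271 and 280.3 CPM in wild-type 1 to 5 and 218, 196, 237, 255 and 234 CPM in Srgn-knockout 1 to 5, and the ranges overlapped. Its log2 fold change was -0.20 (SE 0.093, adjusted p = 0.392 by edgeR). Gusb is the beta-glucuronidase that removes glucuronic acid from glycosaminoglycans. It stood at 54.0, 90.5, 105, 98.6 and 141 CPM in wild-type 1 to 5 and 92.4, 55.8, 57.4, 85.5 and 67.0 CPM in Srgn-knockout 1 to 5, a log2 fold change of -0.45 (SE 0.23, adjusted p = 0.435 by edgeR). Its wild-type libraries included both the lowest and the highest value of the 10.

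Lamp2 encodes a major glycoprotein of the lysosomal membrane, needed for autophagy. Its level was 186, 216, 259, 239.8 and 284 CPM in wild-type 1 to 5 and 290.5, 296, 287, 261 and 241 CPM in Srgn-knockout 1 to 5, a log2 fold change of 0.22 (SE 0.12, adjusted p = 0.456 by edgeR). The 3 highest values were in Srgn-knockout libraries, but wild-type 5 was above 2 of that group. Ctsf, a cysteine cathepsin, stood at 108, 121, 82.0, 109 and 107 CPM in wild-type 1 to 5 and 81.9, 91.7, 95.5, 101 and 90.8 CPM in Srgn-knockout 1 to 5 (log2 -0.20, SE 0.11, adjusted p = 0.456 by edgeR). Its 4 highest values were wild-type, while wild-type 3 lay at the bottom beside Srgn-knockout 1.

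Acp2, the lysosomal acid phosphatase, had 89.6, 119, 112, 115 and 128 CPM in wild-type 1 to 5 and 118, 90.3, 91.9, 99.9 and 89.7 CPM in Srgn-knockout 1 to 5 (log2 -0.20, SE 0.11, adjusted p = 0.470 by edgeR). Wild-type 1 held its lowest value of all 10. Naglu, which removes N-acetylglucosamine from heparan sulfate, had 70.2, 82.7, 83.1, 83.4 and 99.7 CPM in wild-type 1 to 5 and 79.5, 69.4, 75.1, 78.2 and 69.5 CPM in Srgn-knockout 1 to 5 (log2 -0.17, SE 0.097, adjusted p = 0.482 by edgeR). Here too wild-type 1 was the lowest of its group, below 3 of the 5 Srgn-knockout libraries. Ctsa, the protective protein of the sialidase and beta-galactosidase complex, had 285, 355, 382, 363 and 628 CPM in wild-type 1 to 5 and 405, 278, 280.2, 352 and 273 CPM in Srgn-knockout 1 to 5. Its log2 fold change was -0.34 (SE 0.20, adjusted p = 0.496 by edgeR), and wild-type 5 stood far above the other 4 of its group.

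Serglycin carries glycosaminoglycan chains, so the members that take apart chondroitin, dermatan or heparan sulfate were read together, a grouping made after the values were seen. Hexa, Gusb, Galns, Arsb, Naglu, Sgsh and Ids had log2 fold changes of -0.34, -0.45, -0.07, -0.14, -0.17, -0.08 and -0.12. None passed the test, and the adjusted p-values by edgeR ran from 0.435 for Gusb to 0.900 for Galns. With the macrophage score as a covariate the values were -0.06, -0.16, 0.08, -0.21, -0.09, 0.02 and -0.12 in the same order, so those of Galns and Sgsh were then above 0. A p that misses the threshold does not show that the levels were equal.

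Across the 10 libraries, by contrast, most of the lysosomal genes followed the macrophage score. Of the 43 tested members, 31 rose with the score, 1 fell and 11 did not pass (edgeR quasi-likelihood test of the slope with genotype as a term, Benjamini-Hochberg adjusted p of 0.05 over all genes). The background was 14.0% of all tested genes rising and 9.47% falling. The slope is the log2 change of a gene per log2 unit of score, and its median was 0.45 over the members and -0.0086 over all tested genes. It was above 0 for 38 of the 43 members, against 6231 of all 12719 tested genes. It was above 0.5 for 19 members, against 11.1% of all tested genes. The score and the members' levels come from the same libraries and so share their depth and scaling.

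**Figure D2:**
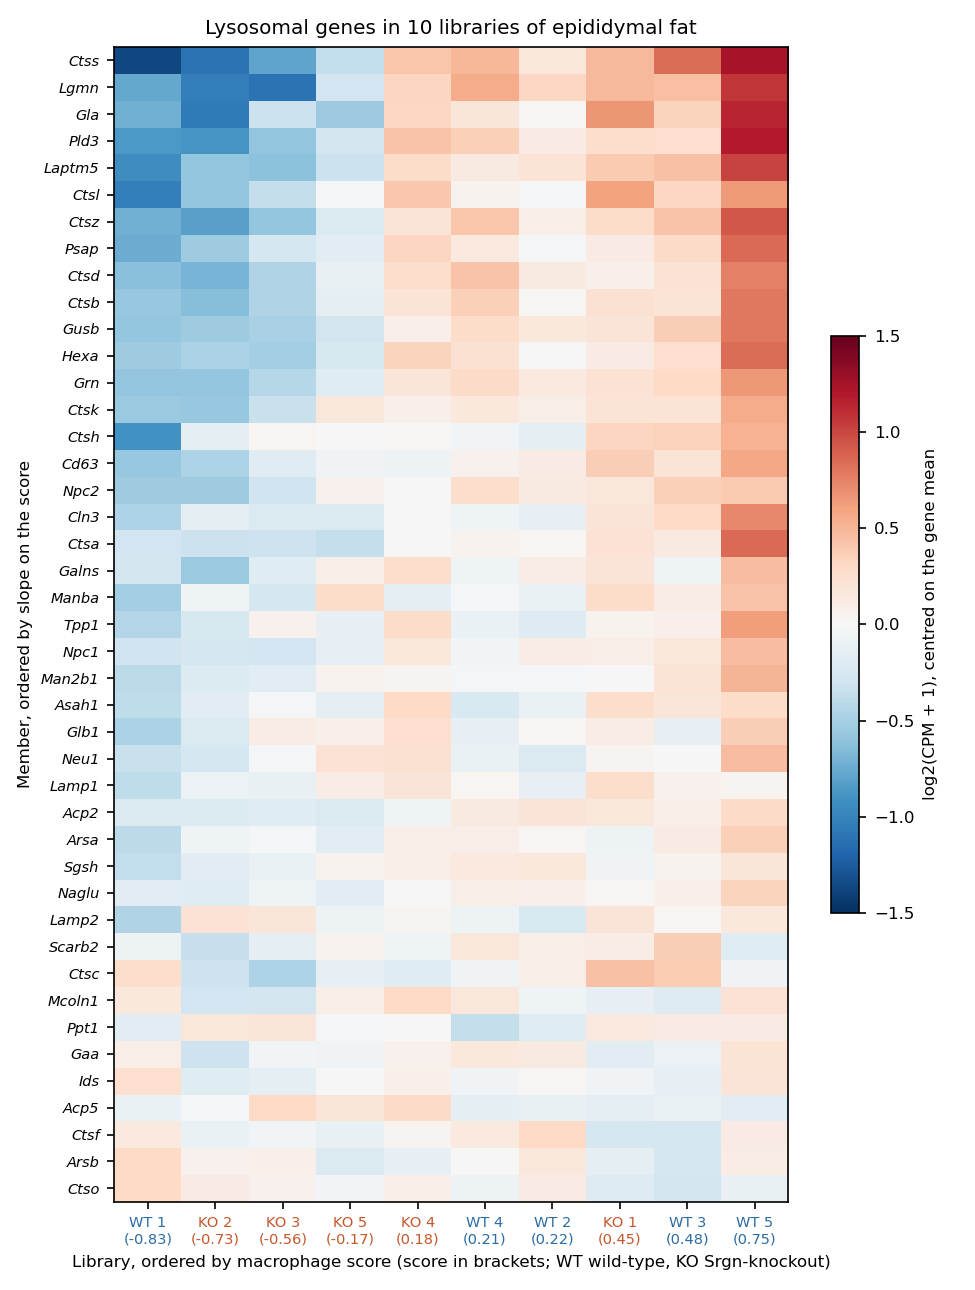
Level of each tested lysosomal gene (rows, ordered by slope) in each library (columns, ordered by macrophage score in brackets), as log2(CPM + 1) centred on the gene's mean over the 10 libraries. Wild-type 1 and Srgn-knockout 2 and 3, at scores of -0.83, -0.73 and -0.56, are blue in most of the upper rows, and wild-type 5, at 0.75, is red in them, while the lowest rows show little of that order.

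This count leaned on 1 library. Without wild-type 1, which has the lowest score, 19 members rose, all of them among the 31, and the count of all genes past the threshold went from 2987 to 971. Of those 971 genes 710 rose and 261 fell, against 1782 and 1205 with all 10 libraries. Without both wild-type 1 and Srgn-knockout 2, 12 members passed, all rising. The count of all genes past the threshold in that fit is given in the closing section, without a split by direction. The median slope of the members without wild-type 1 was 0.46, and it was 0.36 without wild-type 5, the library with the highest score. Upper-quartile scaling gave 28 members rising and 2 falling. Under that scaling 1424 of 3113 genes past the threshold rose, against 1782 of 2987 under the main scaling.

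**Figure D3:**
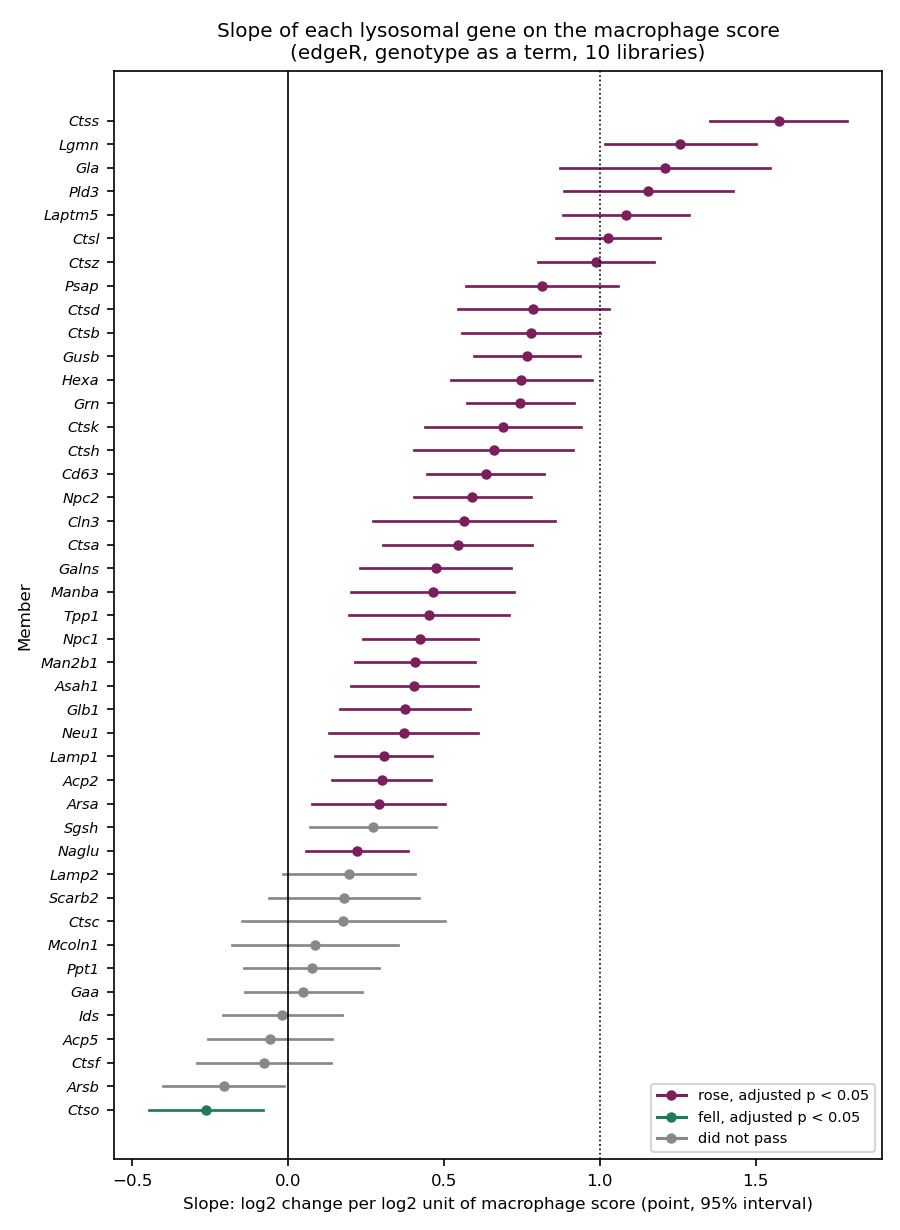
Slope of each tested lysosomal gene on the macrophage score, with its 95% interval (edgeR, genotype as a term, 10 libraries). The points run from 1.57 for Ctss to -0.26 for Ctso, and 31 genes rose, 1 fell and 11 did not pass at an adjusted p of 0.05. The dotted line marks a slope of 1, at which a gene doubles when the score goes up by 1.

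The cysteine cathepsins with legumain held the steepest genes of the list and also the sole one that fell. Of the 10, 7 rose, 1 fell and 2 did not pass, with a median slope of 0.74. Ctss encodes cathepsin S, which trims the invariant chain of MHC class II in antigen-presenting cells. Its level was 119, 346, 552, 439 and 729 CPM in wild-type 1 to 5 and 434, 143, 179, 414 and 239 CPM in Srgn-knockout 1 to 5. The lowest and the highest value were both wild-type, in the libraries with the lowest and the highest score. Its slope was 1.57 (95% interval 1.35 to 1.79, adjusted p = 3.19e-07 by edgeR), the steepest of the members, and the highest level was 6.11 times the lowest.

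Lgmn encodes legumain, the asparaginyl protease that cuts cathepsins into their mature form. It stood at 237, 504, 556, 596 and 856 CPM in wild-type 1 to 5 and 566, 196, 187, 507 and 331 CPM in Srgn-knockout 1 to 5. Srgn-knockout 2 and 3 were below wild-type 1 although their scores were higher. The slope was 1.26 (SE 0.11, adjusted p = 2.05e-06 by edgeR). Ctsl, cathepsin L, is an endopeptidase of the lysosomal lumen. Its values were 722, 1443, 1814, 1518 and 2278 CPM in wild-type 1 to 5 and 2221, 981, 1149, 1943 and 1446 CPM in Srgn-knockout 1 to 5, with a slope of 1.03 (95% interval 0.86 to 1.19, adjusted p = 5.22e-07 by edgeR). Srgn-knockout 1 was above all libraries but wild-type 5 for Ctsl although wild-type 3 and 5 had higher scores.

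Ctsz, the carboxypeptidase cathepsin Z, had 118, 210.1, 265, 261 and 376 CPM in wild-type 1 to 5 and 237, 111, 131, 225 and 168 CPM in Srgn-knockout 1 to 5. The 3 lowest values were in the 3 libraries with the lowest scores, and the slope was 0.99 (95% interval 0.80 to 1.17, adjusted p = 1.80e-06 by edgeR). Ctsb, cathepsin B, ranged from 3405 to 9158 CPM with a slope of 0.78. Ctsk, the collagen-degrading cathepsin K, ranged from 12.1 to 27.7 CPM with a slope of 0.69, and Ctsh, an aminopeptidase, from 66.6 to 181 CPM with a slope of 0.66. Ctsc, which activates the serine proteases of immune granules, spanned 109.7 to 206 CPM and did not pass (slope 0.18, SE 0.15, adjusted p = 0.431 by edgeR).

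Ctso and Ctsf, of the same cathepsin family, ran the other way or flat. Ctso stood at 95.6, 84.3, 63.9, 73.1 and 71.8 CPM in wild-type 1 to 5 and 67.3, 84.2, 81.1, 82.5 and 75.1 CPM in Srgn-knockout 1 to 5. Its highest level was in wild-type 1, the library with the lowest score, and its lowest in wild-type 3. The slope was -0.26 (95% interval -0.45 to -0.08, adjusted p = 0.0365 by edgeR), and this call was lost in 12 of 22 alternative settings, among them without wild-type 1 (slope -0.21, adjusted p = 0.360), with adjusted p-values of up to 0.555 over all of them. Ctsf, whose values by library stand above, had a slope of -0.08 (95% interval -0.29 to 0.14, adjusted p = 0.623 by edgeR).

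**Figure D4:**
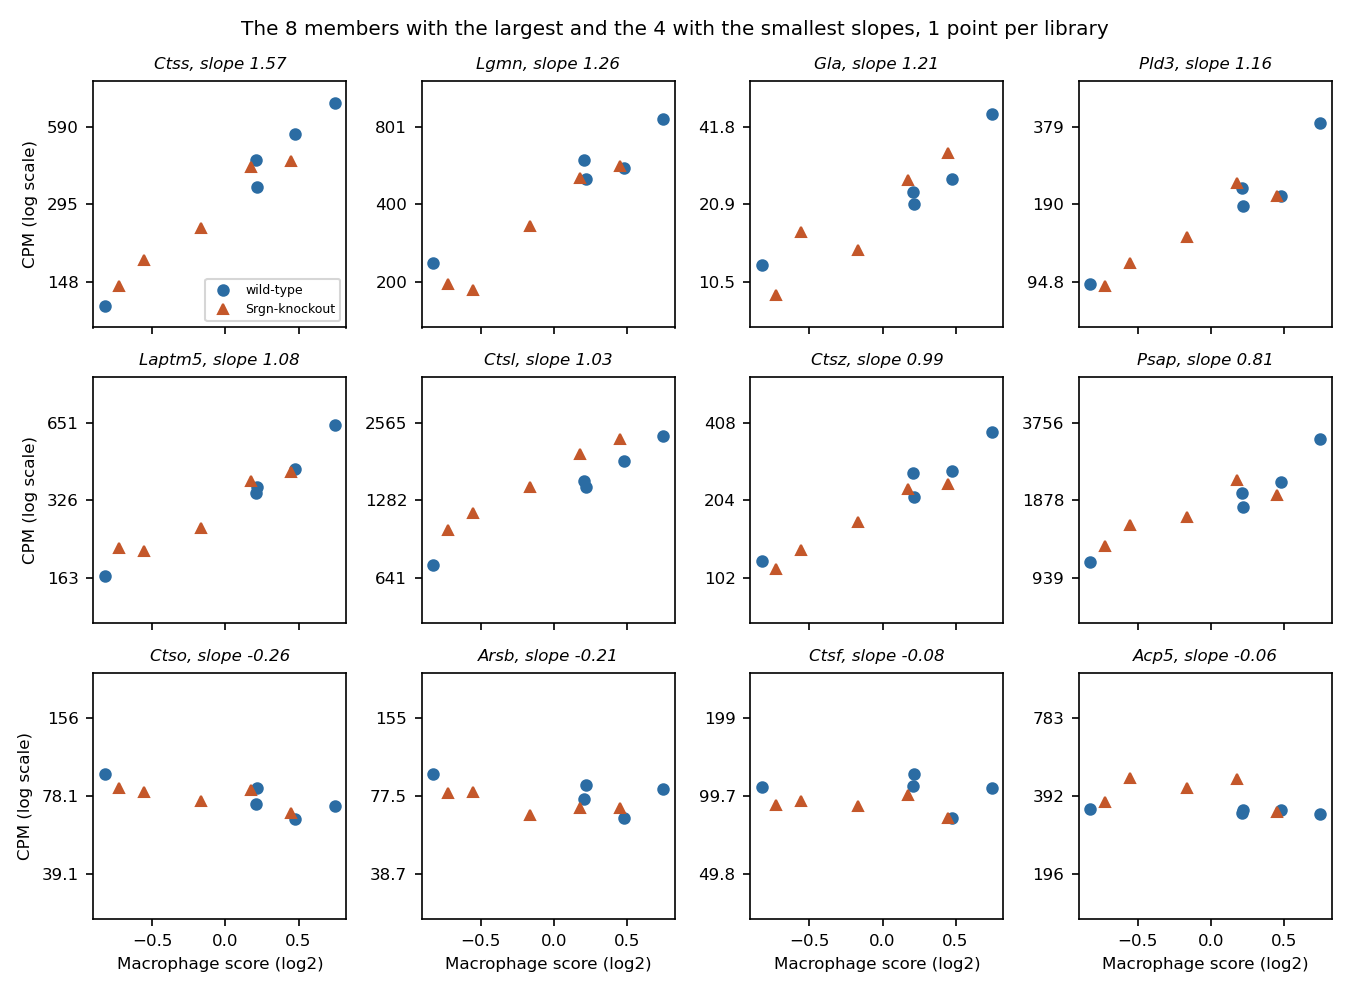
Level in CPM (log scale) against macrophage score (log2) for the 8 lysosomal genes with the largest slope and the 4 with the smallest, 1 point per library. In the upper 8 panels the libraries of both genotypes climb along 1 band, and in the lowest 4 they stay level or slope down, with slopes of -0.26 to -0.06.

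All 3 other proteases rose. Ctsd, the aspartic protease cathepsin D, ranged from 3305 to 9027 CPM with a slope of 0.79 (SE 0.11, adjusted p = 0.000162 by edgeR). Ctsa had a slope of 0.54 (SE 0.11, adjusted p = 0.00273) and Tpp1, a tripeptidyl peptidase, of 0.45 (SE 0.12, adjusted p = 0.0137). Tpp1 spanned 132 to 277 CPM, a highest level 2.10 times the lowest, against 2.73 for Ctsd and 2.30 for Ctsa.

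Among the glycosidases 8 of 9 tested rose, with a median slope of 0.41. Gla, the alpha-galactosidase A whose loss causes Fabry disease, was the steepest. It had 12.1, 20.9, 26.2, 23.5 and 46.7 CPM in wild-type 1 to 5 and 33.2, 9.35, 16.3, 25.9 and 13.9 CPM in Srgn-knockout 1 to 5. Wild-type 5 was highest and Srgn-knockout 2 lowest, and the slope was 1.21 (95% interval 0.87 to 1.55, adjusted p = 7.39e-05 by edgeR). Gla is also the member with a pair of upstream TCACGTGA motifs in the lines printed above. Gusb and Hexa, the alpha subunit of beta-hexosaminidase, followed with slopes of 0.77 and 0.75. The 5 others that rose had slopes of 0.46 (Manba, beta-mannosidase), 0.41 (Man2b1, alpha-mannosidase), 0.37 (Glb1, beta-galactosidase), 0.37 (Neu1, sialidase) and 0.22 (Naglu, adjusted p = 0.0480 by edgeR). Gaa, at 196 to 280.3 CPM, was the exception, with a slope of 0.05 (SE 0.088, adjusted p = 0.728), which turned below 0 under upper-quartile scaling.

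The sulfatases remove sulfate groups from glycosaminoglycans or sulfatide and had the lowest median slope of the 6 role groups, 0.27. Galns, the N-acetylgalactosamine-6-sulfatase, rose (24.0 to 49.5 CPM, slope 0.47, SE 0.11, adjusted p = 0.00721 by edgeR), as did Arsa, arylsulfatase A (slope 0.29, SE 0.10, adjusted p = 0.0484). Sgsh, the heparan N-sulfatase, had a slope of 0.27 (SE 0.095, adjusted p = 0.0510) and Ids, iduronate sulfatase, of -0.02 (SE 0.089, adjusted p = 0.901). Arsb removes sulfate from dermatan and chondroitin sulfate. It stood at 94.1, 85.6, 63.8, 75.6 and 82.3 CPM in wild-type 1 to 5 and 69.4, 79.9, 80.1, 69.8 and 65.1 CPM in Srgn-knockout 1 to 5. Its highest value was in wild-type 1 and its lowest in wild-type 3, and the slope was -0.21 (95% interval -0.40 to -0.01, adjusted p = 0.116 by edgeR). The adjusted p of Arsb was 0.0374 under upper-quartile scaling and 0.0391 without wild-type 5, with slopes of -0.29 in both.

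Of the 8 members that handle lipids, phosphates or nucleic acids, 6 rose and 2 did not pass, with a median slope of 0.41. Pld3, an exonuclease that digests single-stranded nucleic acids in endolysosomes, had 93.3, 187, 204, 219 and 392 CPM in wild-type 1 to 5 and 205, 91.7, 113, 229.9 and 141 CPM in Srgn-knockout 1 to 5. Wild-type 5 stood above all others, and the lowest libraries, Srgn-knockout 2 and wild-type 1, differed little. The slope was 1.16 (95% interval 0.88 to 1.43, adjusted p = 2.05e-05 by edgeR). Psap encodes prosaposin, the precursor of the saposins that present sphingolipids to their hydrolases. Its level was 1082, 1776, 2202, 2008 and 3262 CPM in wild-type 1 to 5 and 1966, 1248, 1501, 2261 and 1621 CPM in Srgn-knockout 1 to 5, with a slope of 0.81 (95% interval 0.57 to 1.06, adjusted p = 0.000125 by edgeR). Without the 2 libraries of lowest score the slope of Psap was 0.76 and its adjusted p 0.0581.

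Npc2 and Npc1, the soluble and the membrane protein that pass cholesterol out of the lysosome, both rose, with slopes of 0.59 and 0.42. Asah1, the acid ceramidase, and Acp2 rose with slopes of 0.40 and 0.30. Ppt1, a thioesterase that removes palmitate from proteins, did not pass (slope 0.08, SE 0.10, adjusted p = 0.630 by edgeR). Acp5, a gene known from macrophages and osteoclasts, did not pass either: its slope was -0.06 (95% interval -0.26 to 0.14, adjusted p = 0.695 by edgeR). The 5 wild-type values of Acp5 spanned 333 to 349 CPM over the whole width of the score.

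Among the membrane proteins and progranulin 5 of 8 rose, with a median slope of 0.44. Laptm5, a membrane protein of lysosomes in blood-derived cells, had 166, 366, 429.7, 348 and 640.0 CPM in wild-type 1 to 5 and 418, 213, 207, 385 and 254 CPM in Srgn-knockout 1 to 5. Its lowest value was in wild-type 1 and its highest in wild-type 5, and the slope was 1.08 (95% interval 0.88 to 1.28, adjusted p = 1.66e-06 by edgeR). Grn encodes progranulin, which is carried to the lysosome and cut into granulins, and ranged from 677 to 1601 CPM with a slope of 0.75. Cd63, a tetraspanin of late endosomes, had a slope of 0.63 and Cln3, whose loss causes juvenile Batten disease, of 0.56.

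The other members of this group, Lamp1, Lamp2, Scarb2 and Mcoln1, moved less than Laptm5, Grn, Cd63 and Cln3. Lamp1 rose with a slope of 0.31 (SE 0.073, adjusted p = 0.00677 by edgeR) over 347 to 539 CPM. Lamp2 had a slope of 0.19 (SE 0.099, adjusted p = 0.176), and Scarb2, the receptor that carries beta-glucocerebrosidase to the lysosome, of 0.18 (adjusted p = 0.278). Mcoln1, the cation channel TRPML1, had a slope of 0.09 (adjusted p = 0.657). None of the last 3 passed. The interval for Ctss, 1.35 to 1.79, lay wholly above that for Lamp1, 0.15 to 0.46, so these members differed in slope by more than their error.

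The slopes of members with CACGTG in the promoter window ran from -0.08 to 1.26 and those of members without it from -0.26 to 1.57. The median was 0.34 over the 14 with it and 0.46 over the 24 tested without it. Ctss, the steepest member, lacked it, while Lamp1 with its 4 copies had a slope of 0.31. Gla, Ctsd, Cln3, Ctsa and Mcoln1, which hold the longer TCACGTGA, had slopes of 1.21, 0.79, 0.56, 0.54 and 0.09. These values are a description of the windows that could be matched.

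Taken within 1 genotype, the gradient was there in both. In 1 fit of all 10 libraries with a slope for each genotype, 27 members rose in wild-type, against 9.80% of all tested genes. In Srgn-knockout 15 rose, against 4.73%. Both slopes share the error estimate of that fit, so they are not separate tests of 5 libraries each. No member fell in either. All 15 were among the 27. A slope above 0 in both genotypes was found for 34 of the 43 members. The share over all tested genes was not taken for that count, so it has no background and is a description only. The difference of the slopes itself was tested as an interaction. No member passed it at an adjusted p of 0.05, with a background of 0%, and 4 members reached an unadjusted p under 0.05, against 6.29% of all tested genes.

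These 4 were Ctsh, Ctsc, Lamp2 and Arsa. Ctsh had slopes of 0.92 (SE 0.11) in wild-type and 0.29 (SE 0.13) in Srgn-knockout, with an adjusted p of 0.552 for the interaction by edgeR. Its value in wild-type 1 was 66.6 CPM, the lowest of the 10, while all 5 Srgn-knockout libraries lay between 113 and 157 CPM. Ctsc had slopes of -0.11 (SE 0.14) and 0.60 (SE 0.17), adjusted p 0.639 for the interaction. Lamp2 had slopes of 0.38 and -0.06, and Arsa of 0.46 and 0.04. These differences did not hold after adjustment.

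With the score as a covariate, the genotype term asks how the genotypes differ at an equal macrophage score. No member passed in that fit, where 0.252% of all tested genes did. The member with the smallest p was Ctsl, with a log2 difference of 0.36 (SE 0.078, adjusted p = 0.0607 by edgeR), against -0.01 without the covariate. The other members next in order were Lamp1 (log2 0.25, adjusted p = 0.121) and Lamp2 (log2 0.30, adjusted p = 0.167), both with higher fitted levels in Srgn-knockout.

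Other genes of the lysosome, of its control and of cathepsin inhibitors were read from lists that hold no member. None of their genes passed between the genotypes. Of 24 other hydrolases and activators tested, 12 rose with the score and none fell, with a median slope of 0.29. The 4 with the smallest p were Lipa, the acid lipase that frees fatty acids from stored lipid (27.7 to 188 CPM, slope 1.43), Dnase2a (slope 0.99), the lysozyme gene Lyz2 (slope 0.83) and the carboxypeptidase gene Prcp (slope 0.65). Of 22 other membrane proteins, 10 rose and 1 fell, with a median of 0.24. Cd68, the macrophage sialomucin (104 to 914 CPM), and Slc11a1, a metal transporter of phagosomes, had slopes of 1.80 and 1.65. Tpcn2, an endolysosomal cation channel, had a slope of 0.95, and Gpnmb, a gene of lipid-laden macrophages, one of 2.46.

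For the proton pump 11 of 16 tested subunits rose and none fell, with a median slope of 0.32. Atp6v0a1, Atp6v1a, Atp6v1b2 and Atp6v0b had slopes of 1.09, 0.78, 0.89 and 0.60. Of 13 sorting genes 4 rose and 1 fell, with a median slope of 0.22. Gnptab, a subunit of the enzyme that makes the mannose 6-phosphate tag, had a slope of 0.43, Nagpa, which uncovers that tag, 0.38, and the adaptor gene Gga3 0.35. Sort1, which encodes the sorting receptor sortilin and is also part of the glucose transporter vesicles of adipocytes, fell (slope -0.33, adjusted p = 0.00529 by edgeR).

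Among 14 genes that control lysosomal genes or sense nutrients at the lysosome, 6 rose and none fell. The transcription factor genes Tfec, Tfeb and Tfe3 had slopes of 1.06, 0.40 and 0.34, and Lamtor3, a scaffold of the nutrient-sensing complex, of 0.37. Of 6 cathepsin inhibitors, 3 rose: Cstb, the cystatin that binds cathepsins in the cytosol (slope 1.51), Serpina3n (0.72) and Serpinb6a (0.27). Cst3, the secreted cystatin C, was at 1823 to 2388 CPM with a slope of 0.09 (adjusted p = 0.486) and did not pass.

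**Figure D5:**
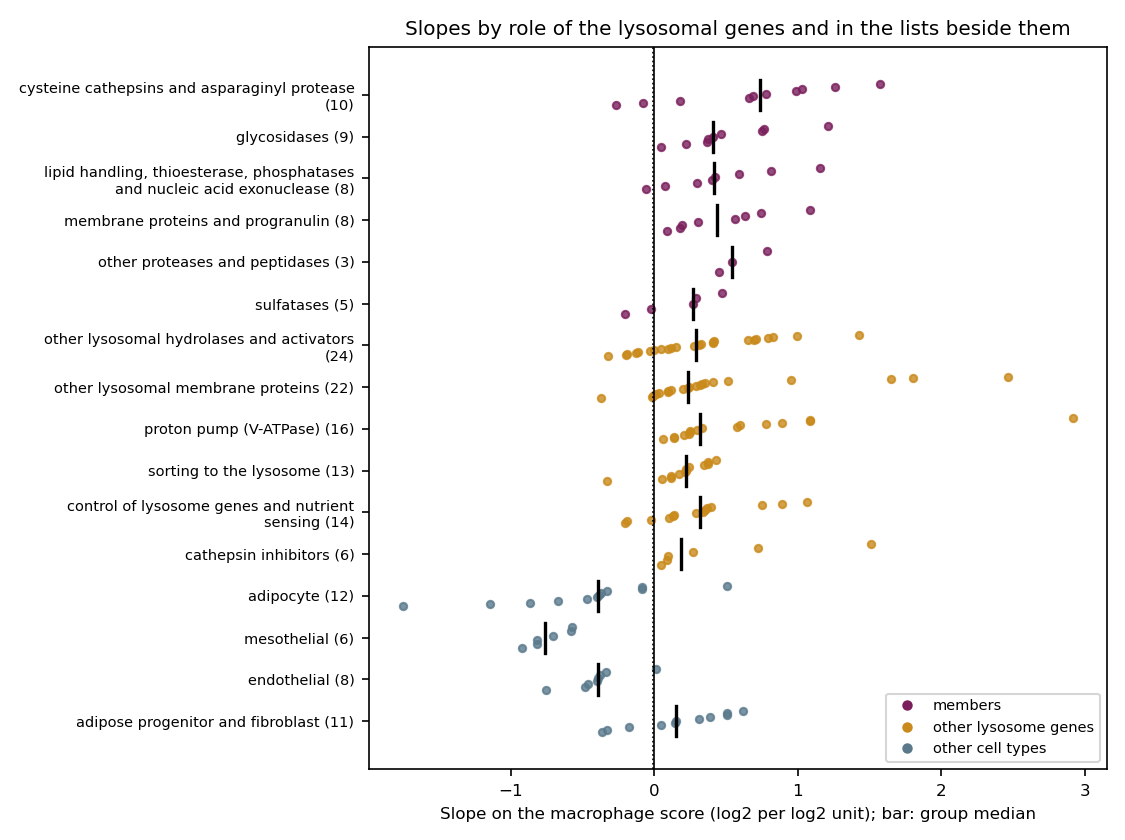
Slope on the macrophage score for each tested gene (points) and the group median (bar), with the number of genes in brackets. Shown are the roles of the lysosomal genes, 6 lists of other lysosome-related genes (cathepsin inhibitors included) and 4 lists of other cell types. The medians of the lysosomal roles lie between 0.27 and 0.74, and those of the adipocyte, endothelial and mesothelial markers between -0.76 and -0.39. That of the progenitor and fibroblast markers is 0.15. The dotted line, almost at 0, is the median of all tested genes.

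Markers of other cells moved along the same axis. The 16 tested pan-macrophage markers make up the score, so their mean slope (1.03) is near 1 by construction and is no separate result. Of them 13 rose, with a summed level of 918 to 3348 CPM in wild-type and 1074 to 2401 in Srgn-knockout. Of 9 lipid-associated macrophage markers 8 rose, Plin2, Lgals3, Itgax and Trem2 with slopes of 1.39, 2.14, 1.78 and 2.64. Their sum was 1152 to 6815 CPM in wild-type and 1515 to 4067 in Srgn-knockout. Of 10 pan-leukocyte markers 9 rose, with sums of 669 to 2267 and 732 to 1885 CPM. On lists of T cell, B cell, mast cell and dendritic cell genes, with 8, 6, 6 and 7 genes tested, no gene passed on the gradient, and of 3 tested neutrophil genes 1 rose.

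In the opposite direction, 9 of 12 adipocyte markers fell, led by Retn (-1.14), Cfd (-1.75) and the glucose transporter gene Slc2a4 (-0.86). Their sum was 32563 to 51186 CPM in wild-type and 33151 to 42407 in Srgn-knockout. Of 8 endothelial markers 7 fell (sums of 569 to 829 and 672 to 986 CPM), and all 6 mesothelial markers fell (sums of 262 to 533 and 217 to 483 CPM). Of 11 progenitor and fibroblast markers 4 rose and 1 fell. Among the marker genes with a row, 2 neutrophil genes had no read in any library, and all others were read in at least 1. CPM are shares of a library, so a rise of some cell types lowers the share of others, and the part of each cell type in the members' slopes was not tested.

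Some members share genomic sequence with a neighbour. By the GENCODE M21 annotation, exons of 16 of the 44 members overlap another gene, and the share over all genes was not taken. On the same strand, Ctsd overlaps Gm49369, Ctsl overlaps Gm49230 and Glb1 overlaps Tmppe. Overlaps on the opposite strand include Ctsa with Pltp and Neurl2, Ctsz with Nelfcd, Ctsb with Fdft1, Acp2 with Ddb2 and Cln3 with Apobr. The positions of the amplicons and the strand used in counting are not stated in the sources at hand. Whether reads of the neighbour enter the values of these genes was not tested.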

How the data were processed

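Per the labels' protocols, total RNA of epididymal fat went through an Ion AmpliSeq mouse transcriptome kit (1 short amplicon a gene) and an Ion S5 XL sequencer. The submitters' processing notes name build mm9, with the aligner and counter not given in the sources used here. Raw counts, whole-number reads per amplicon, were deposited by the authors beside a table of RPM (reads scaled to a common total). Each deposited RPM value equals the count over its column total, within 0.00059109.

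Because each gene has 1 amplicon, levels were compared between libraries and not between genes. Groups came from the genotype label, and libraries are numbered in accession order, which pairs none. In R 4.3.3 with edgeR 4.0.16, genes were kept by filterByExpr (minimum count 10, minimum total 15; 12719 of 23930), libraries were scaled by TMM factors, and the quasi-likelihood test with robust dispersion was run two-sided over all genes. Adjustment was by Benjamini and Hochberg, threshold 0.05. CPM include TMM factors; sums over marker lists and shares of reads do not. The score is the mean log2 CPM (prior count 2) of 16 tested markers. Slopes were fitted with genotype as a term, and slopes within a genotype came from an interaction fit.

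Named members are the 8 with the smallest genotype p, the 8 with the largest and the 4 with the smallest slope (mean CPM at least 5); on other lists up to 4 genes with the smallest p are named. The members and lists were chosen with earlier results of these data known. Alternatives were upper-quartile factors, no filter, DESeq2 1.42.0, limma 3.58.1 (voom, and trend on log2(RPM + 1)), libraries left out (each in turn, the 3 with epididymis genes, the 2 of most distant score), the score as a covariate, other scores and no genotype term. Slopes within each genotype were added after seeing the data. The scripts were tested on simulated data. AmpliSeq reads carry no molecular identifiers, so the level of 3 reads covers counting error only. Promoters come from RefSeq on GRCm38.p6, not mm9, and were matched by symbol.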

Additional observations from a re-analysis of the deposited data

Results flagged for a closer look

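In each genotype the 5 CPM values of every tested member were checked for 1 value far from the others, by its gap to the nearest other value over the whole range of the group (Dixon's limit of 0.71 for 5 values). Of 86 groups looked at, 2 held such a value, where chance alone flags about 1 in 20.

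Ctsa, the protective protein of the sialidase and beta-galactosidase complex, stood at 627.8 CPM in wild-type 5, while the other wild-type libraries held 285 to 382 CPM. The gap was 0.718 of the range. Wild-type 5 also has the highest macrophage score, 0.75, and the largest share of reads from lysosomal genes, 3.36%.

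Sgsh, the heparan N-sulfatase, stood at 33.7 CPM in wild-type 1, while the other wild-type libraries held 45.4 to 49.6 CPM, a gap of 0.733 of the range. Wild-type 1 has the lowest score, -0.83, and the smallest share of reads from lysosomal genes, 1.46%. The part of the score in either value was not tested.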

How the results depend on the processing

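Between genotypes no member passed under any of 17 alternatives, and the 8 named members kept their direction and stayed short of the threshold in all of them. The count of all genes past the threshold was 1, 3 without the low-count filter, 221 with DESeq2 and 32 with the score as a covariate, and leaving out each library in turn gave 1 to 2 (2 without wild-type 5 or Srgn-knockout 1). On the gradient, leaving out each library in turn gave 19 to 32 members and 971 to 2960 genes past the threshold, the lowest of both without wild-type 1, and median slopes of the members of 0.36 to 0.48. Without the 2 libraries of most distant score, wild-type 1 and Srgn-knockout 2, the counts were 12 members and 523 genes. The slopes within wild-type, from the interaction fit of all 10 libraries, gave 1962 genes and a median slope of 0.54. Those within Srgn-knockout, from the same fit, gave 15 members, 889 genes and 0.33. The lipid-associated macrophage score, which spans a wider range, gave a median slope of 0.28. The slope of Acp5 ran from -0.11 to 0.028 with each library left out, the latter being that without Srgn-knockout 1, where it reversed. Ctss, Lgmn, Gla, Pld3, Laptm5, Ctsl and Ctsz passed in all 22 alternatives, and Psap in 21. Fits with fewer libraries or a narrower range of scores have less power in general. Whether this or another cause lay behind these shifts was not tested. No paired analysis was possible because the replicate numbers come from accession order and pair no mice.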
